A study of Mus musculus with 6 samples.

Results

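The hypoxia-induced genes, which cells switch on when oxygen is short, were followed in embryonic mouse hearts labelled Gas2l3 -/- or wildtype. The genes were chosen by name, as known targets of the hypoxia-inducible factors (HIF), and all 10 (Vegfa, Adm, Egln1, Egln3, Ankrd37, Bnip3, Pdk1, P4ha1, P4ha2 and Ndrg1) are among the 24421 genes of the deposited table. The choice was made with earlier results of these data known. Hearts came from C57/Bl6 embryos at E18.5, shortly before birth, and gave 6 libraries of poly(A) RNA. Of these, 3 are labelled Gas2l3 -/- and 3 wildtype, and the groups share strain, tissue and stage. The labels name neither the allele nor the deleted part of the gene, and do not say whether each library came from its own embryo, so p-values measure only the spread between these libraries, which may be technical.

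HIF is a transcription factor of an oxygen-labile alpha subunit (HIF-1alpha from Hif1a, HIF-2alpha from Epas1) and a stable beta subunit from Arnt. In oxygen, prolyl hydroxylases mark the alpha subunit, the VHL ubiquitin ligase binds the mark, and the subunit is degraded. When oxygen is low the alpha subunit persists and binds short DNA elements beside its target genes, which carry out vessel growth, a shift away from mitochondrial respiration, matrix synthesis and feedback on HIF itself. The fetal heart develops at low oxygen, and HIF is needed for its normal growth in mice.

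The core of the HIF element reads ACGTG or GCGTG. Both were searched on both strands in the 250 bases upstream of the RefSeq transcription starts (GRCm38.p6), where a window was at hand for 9 of the 10 genes, Ndrg1 being the one without. The start-proximal window held at least 1 match in 8 of these 9 genes. The exception was Vegfa, whose further window at an internal start held 2 matches. Of all 32851 windows of this length 38.6% held a match, and of the windows of genes tested here 56.3%, so a match is common and is a description of the letters only. The upstream windows are printed for Adm and Bnip3, whose values did not overlap between the groups, and for Egln3, whose means were nearly the same in both. They are written 5′ to 3′ on the strand of the gene, with matches in capitals.

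Adm, chr7:110627407-110627656, plus strand: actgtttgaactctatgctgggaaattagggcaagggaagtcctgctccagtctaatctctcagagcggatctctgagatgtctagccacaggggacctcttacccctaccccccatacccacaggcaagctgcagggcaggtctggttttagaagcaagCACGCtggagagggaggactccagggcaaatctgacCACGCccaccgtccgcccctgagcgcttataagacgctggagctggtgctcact
Bnip3, chr7:138909507-138909756, minus strand: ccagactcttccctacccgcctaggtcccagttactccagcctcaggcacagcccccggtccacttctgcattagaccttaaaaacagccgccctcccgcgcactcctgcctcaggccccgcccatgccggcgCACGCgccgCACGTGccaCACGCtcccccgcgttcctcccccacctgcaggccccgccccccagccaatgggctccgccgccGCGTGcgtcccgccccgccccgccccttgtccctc
Egln3, chr12:54203875-54204124, minus strand: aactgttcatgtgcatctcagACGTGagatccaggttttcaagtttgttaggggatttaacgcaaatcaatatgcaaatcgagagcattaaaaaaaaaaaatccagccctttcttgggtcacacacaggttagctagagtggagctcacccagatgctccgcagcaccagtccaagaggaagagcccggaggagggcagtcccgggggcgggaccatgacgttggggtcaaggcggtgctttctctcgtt

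Adm had 2 matches, both of GCGTG read on the opposite strand, starting 90 and 54 bases before the transcription start. Bnip3 had 5 matches between 117 and 35 bases before the start, of which the pair at 108 and 107 are the 2 strands of 1 palindrome, CACGTG, which is also an E-box that other factors bind. Egln3 had 1 match, 229 bases before the start. All 3 genes thus carried the core letters, whatever their values in the libraries.

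The libraries held between 3414257 and 7732674 recovered reads, and levels are in FPKM (fragments per kilobase of transcript, scaled for library depth). FPKM summed over all genes ran from 429622 in wildtype-labelled replicate 1 to 788996 in wildtype-labelled replicate 3. Summed levels of markers carry this difference too. Gas2l3 itself stood at 4.03, 2.99 and 3.06 FPKM in knockout-labelled replicates 1, 2 and 3, against 10.3, 4.12 and 2.48 FPKM in wildtype-labelled replicates 1, 2 and 3, so the groups overlapped and the gene's total could not check the genotype. All 12 defining markers of heart muscle cells were tested, with a summed level of 37609 to 46223 FPKM in knockout-labelled and 41064 to 77006 FPKM in wildtype-labelled libraries. Of these 12, 11 had lower means in the knockout-labelled libraries (median log2 fold change −0.45, or −0.21 without wildtype-labelled replicate 3), and their part in the values of the members was not tested. Wildtype-labelled replicate 3 stands apart: over 11709 genes, how far it lay from each gene mean had a correlation of 0.702 with GC content, against −0.481 to −0.0709 in the other 5 libraries (a description across genes, which are not replicates), and its mean correlation with the others was 0.899, against 0.935 to 0.957. Fold changes that it moves strongly are given with and without it.

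The comparison of knockout-labelled with wildtype-labelled hearts asked whether the hypoxia-induced genes differ when Gas2l3 is labelled as deleted. No member passed: limma, fitted to log2(FPKM + 0.5) of 12121 genes with at least 1 FPKM in 3 or more libraries, called 0 of the 10 at an adjusted p under 0.05. The background was the same, since limma called 0 of all tested genes (0%). At an unadjusted p under 0.05 limma had 1 member, Adm, and 394 of all tested genes (3.25%). Voom on the recovered reads called 0 members and 0 genes (0%), and 3.09% of genes were under an unadjusted 0.05 there. The authors' deposited table called 0 members and 9 genes (0.0735%). The median log2 fold change over the 10 members was 0.23, with higher means in the knockout-labelled libraries for 7 and lower means for 3, beside a median of −0.01 over all tested genes. Without wildtype-labelled replicate 3 the median of the members was 0.17, and without wildtype-labelled replicate 1 it was 0.40. All 10 members passed the minimum in all 6 libraries, so none was kept through 1 group alone.

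The groups did not overlap for 3 members, beside 9.76% of all tested genes in either direction. Adm and Bnip3 were higher in every knockout-labelled library than in any wildtype-labelled one, as were 5.02% of all tested genes. Ndrg1 was lower in every knockout-labelled library, as were 4.74% of all tested genes. After GC content and length trends were taken out the same 3 members were separated, in the same directions (background 6.58% higher and 8.42% lower). Leaving out a library cannot undo a separation. These 3 members therefore had to stay apart without wildtype-labelled replicate 3 (background 10.3% higher and 8.7% lower). Scaled to the same sum of FPKM in each library, which put the median over all genes at 0.15, none of the 10 was separated (background 4.5% and 3.2%). Leaving out wildtype-labelled replicate 1 separated Vegfa, Bnip3, Adm and P4ha1 as higher and Egln3 and Ndrg1 as lower (background 15.2% and 17.3%). Leaving out knockout-labelled replicate 2 separated Bnip3, Adm and P4ha1 as higher and Ankrd37 and Ndrg1 as lower (background 7.40% and 7.91%). An exact permutation test over 3 against 3 libraries cannot go below p = 0.1, which is the value that Adm, Bnip3 and Ndrg1 each reached (two-sided).

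**Figure D1:**
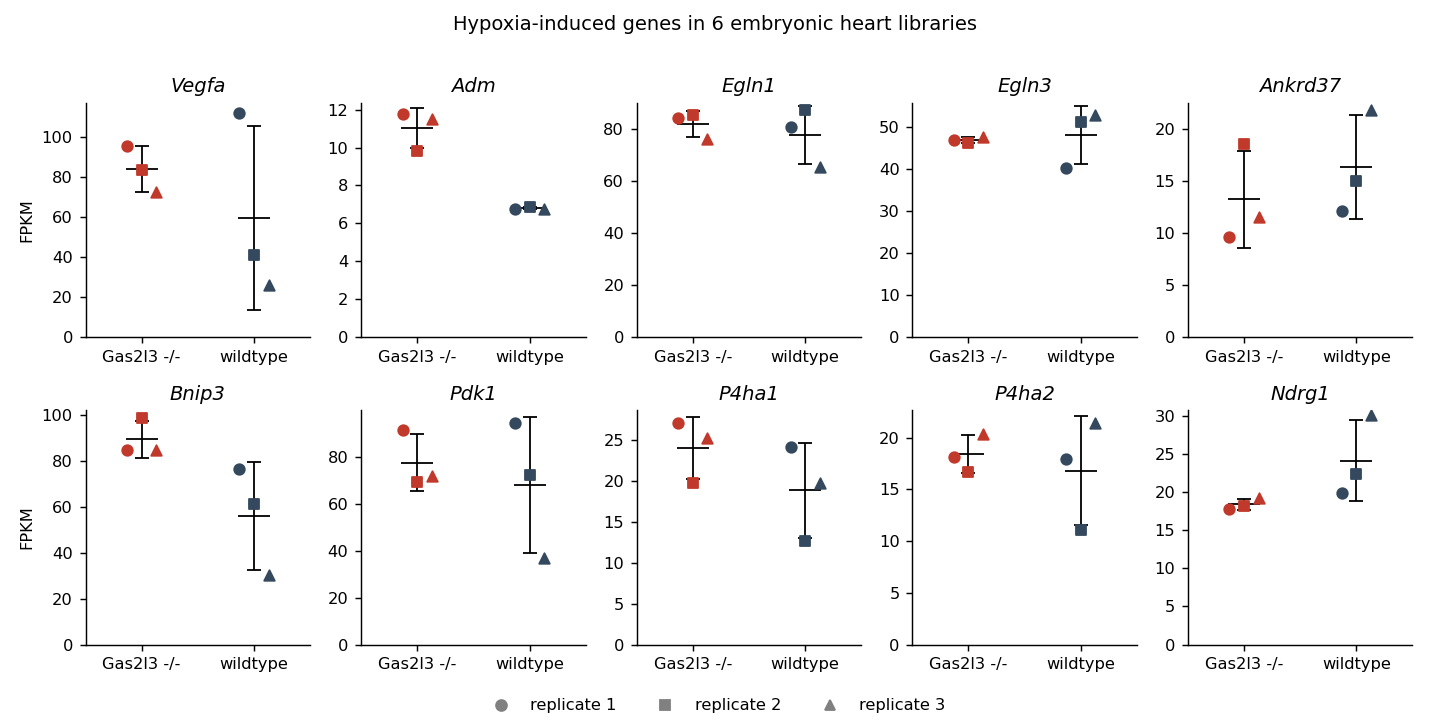
Values of the 10 hypoxia-induced genes in FPKM (y axis, from 0) in the 3 Gas2l3 -/- and 3 wildtype libraries; symbols mark replicate numbers, and black lines the mean with its SD. Adm separates the groups with little spread within either, Ndrg1 is lower in all Gas2l3 -/- libraries, and Vegfa runs from 25.8 to 112 FPKM among the wildtype libraries.

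Among the secreted signals, Adm separated the groups and Vegfa did not. Adm (chromosome 7, 110627661 to 110629820, plus strand, mm10, ENSMUSG00000030790.15) encodes adrenomedullin, a peptide that widens vessels and is needed for the development of heart and lymphatics in mice. Adm was at 11.8, 9.81 and 11.5 FPKM in knockout-labelled replicates 1, 2 and 3, against 6.75, 6.85 and 6.77 FPKM in wildtype-labelled replicates 1, 2 and 3. The groups were apart, with the lowest knockout-labelled library above the highest wildtype-labelled one. Adm averaged 11.03 ± 1.06 FPKM in knockout-labelled and 6.79 ± 0.0527 FPKM in wildtype-labelled libraries (SD, n = 3 each). Adm differed by 0.66 on the log2 scale (SE 0.22, limma, adjusted p = 0.966), and it ranked at 145 by p among the 12121 tested genes. With the groups apart, it had to be higher in 3 of 3 pairs of the same replicate number.

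The reads behind Adm were few. They numbered 105, 73 and 110 in the knockout-labelled libraries and 35, 72 and 57 in the wildtype-labelled libraries. Exact Poisson intervals (95%, counting error only) ran from 7.69 to 12.3 FPKM in knockout-labelled replicate 2 and from 4.70 to 9.39 FPKM in wildtype-labelled replicate 1, and these 2 intervals overlap. The coefficient of variation of Adm was 9.64% among knockout-labelled libraries, where counting alone gives 10.4%, and 0.776% among wildtype-labelled libraries, where counting alone gives 14.1%. The wildtype-labelled values thus lay closer together than counting alone gives on average. Adm overlaps an antisense gene model, Gm28863, in the annotation, and whether strand was used in counting is not given in the sources used here. Adm was at 0.65 (SE 0.18, adjusted p = 0.992, limma) without wildtype-labelled replicate 3, and in all 17 alternatives it lay between 0.61 and 0.83. After GC content and length trends were taken out the groups were barely apart, since the lowest knockout-labelled value of Adm deviated by −0.07 and the highest wildtype-labelled value by −0.08 on the log2 scale, and its range over the 6 libraries was 1.10, against 0.757 as deposited.

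Partners of Adm did not share a direction. The receptor gene Calcrl was at 12.3, 6.94 and 7.76 FPKM in knockout-labelled and 12.9, 6.55 and 5.96 FPKM in wildtype-labelled libraries, so the groups overlapped. The receptor modifiers Ramp1, Ramp2 and Ramp3 overlapped between the groups as well, with log2 fold changes of −0.78 (SE 0.52), −0.17 (SE 0.50) and −0.53 (SE 0.52). All 3 had their highest value in wildtype-labelled replicate 3, and without that library the fold changes were −0.25, 0.41 and 0.15. Ackr3, a scavenger receptor that clears adrenomedullin and the chemokine CXCL12, averaged 41.3 ± 16.1 FPKM in knockout-labelled and 21.4 ± 3.42 FPKM in wildtype-labelled libraries (SD, n = 3 each), without overlap (log2 fold change 0.86, SE 0.34, adjusted p = 0.966, limma). Adm2 stayed under the minimum. Of these 6 partner genes 5 were tested and 0 were called.

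Vegfa varied more between libraries than any other member. Vegfa (chromosome 17, 46016993 to 46032369, minus strand, mm10, ENSMUSG00000023951.17) encodes the growth factor that drives the sprouting of endothelial cells. It was at 95.7, 83.7 and 72.5 FPKM in knockout-labelled replicates 1, 2 and 3, against 112, 41.0 and 25.8 FPKM in wildtype-labelled replicates 1, 2 and 3. The groups overlapped, because wildtype-labelled replicate 1 was the highest of the 6 libraries while the other 2 wildtype-labelled libraries were the lowest. The means were 84.0 ± 11.6 FPKM in knockout-labelled and 59.7 ± 46.1 FPKM in wildtype-labelled libraries (SD, n = 3 each). Vegfa differed by 0.75 on the log2 scale (SE 0.50, limma, adjusted p = 0.966), by 0.30 without wildtype-labelled replicate 3 and by 1.35 without wildtype-labelled replicate 1, so 1 wildtype-labelled library decides its size. Vegfa was read 658 to 2585 times per library, so counting error is small beside this spread. After GC content and length trends were taken out, wildtype-labelled replicate 1 was still highest, at 0.75 above the gene mean on the log2 scale, and wildtype-labelled replicate 3 lowest, at −1.32.

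Genes whose profile over the 6 libraries was most like that of Vegfa were Ccnl2, Adam1a, Tmem87a, Sppl2a and Tmem168. The root mean square difference of the centred log2 values from Vegfa was 0.0901 for Ccnl2, a cyclin that associates with splicing factors, and 0.146 to 0.167 for the other four. Ccnl2 was at 55.3, 49.1 and 43.1 FPKM in knockout-labelled and 66.7, 23.5 and 17.8 FPKM in wildtype-labelled libraries. Each of the 5 genes had, like Vegfa, its lowest value in wildtype-labelled replicate 3, which choosing them by this likeness made nearly certain. Their GC content lay between 38.8% and 47.9%, below the 50.9% of Vegfa. No member of the hypoxia set was among the 5, which was likely in advance, since the members are 10 of the 12121 tested genes.

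Of the other VEGF ligands and receptors, 9 genes in all, 0 were called, 3 had higher and 6 lower means in the knockout-labelled libraries, and the median log2 fold change was −0.02, or 0.15 without wildtype-labelled replicate 3. Figf, the gene of VEGF-D, a ligand for lymphatic vessels, averaged 1.997 ± 0.136 FPKM in knockout-labelled and 0.837 ± 0.496 FPKM in wildtype-labelled libraries (SD, n = 3 each) without overlap (log2 fold change 0.98, SE 0.36, adjusted p = 0.966, limma). All values of Figf were low, from 0.264 FPKM in wildtype-labelled replicate 1 to 2.08 FPKM in knockout-labelled replicate 3. Of all tested genes 5.02% were higher without overlap. Vegfb, a ligand of the receptor Flt1, was at 138, 164 and 130 FPKM in knockout-labelled and 135, 238 and 462 FPKM in wildtype-labelled libraries. The groups of Vegfb overlapped, its log2 fold change was −0.78 (SE 0.45), or −0.32 without wildtype-labelled replicate 3, and its order among the wildtype-labelled libraries was the reverse of that of Vegfa. Kdr, the main signalling receptor of VEGF on endothelial cells, was at −0.26 (SE 0.46) and Flt1, which also traps the ligand, at 0.09 (SE 0.42), against 0.15 for Kdr and 0.46 for Flt1 without wildtype-labelled replicate 3. Endothelial markers stood beside them at a summed level of 606 to 725 FPKM in knockout-labelled and 468 to 1165 FPKM in wildtype-labelled libraries. The sum was highest in wildtype-labelled replicate 3, which also had the highest FPKM summed over all genes. The part of endothelial markers in these values was not tested. In whole hearts, fewer cells of a type and less RNA per cell cannot be told apart.

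The hydroxylase genes Egln1 and Egln3, which feed back on HIF, had log2 means that differed by less than the pooled SD within groups. Egln1 (chromosome 8, 124908587 to 124949324, minus strand, mm10, ENSMUSG00000031987.6) encodes PHD2, the main prolyl hydroxylase that marks HIF-1alpha in oxygen and is itself a HIF target. It was at 84.3, 85.3 and 76.4 FPKM in knockout-labelled replicates 1, 2 and 3, against 80.7, 87.2 and 65.6 FPKM in wildtype-labelled replicates 1, 2 and 3. The groups overlapped, and in both groups replicate 2 was highest and replicate 3 lowest. Egln1 had a log2 fold change of 0.08 (SE 0.27, limma, adjusted p = 0.978), which was 0.29 after GC content and length trends were taken out and −0.03 without wildtype-labelled replicate 3.

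Egln3 (chromosome 12, 54178981 to 54203860, minus strand, mm10, ENSMUSG00000035105.5) encodes PHD3, a related hydroxylase that hypoxia induces strongly in cultured cells and whose transcript is abundant in heart. It was at 46.9, 46.2 and 47.6 FPKM in knockout-labelled libraries, against 40.2, 51.2 and 53.0 FPKM in wildtype-labelled libraries. The knockout-labelled values lay inside the range of the wildtype-labelled ones. Egln3 differed by −0.03 on the log2 scale (SE 0.25, limma, adjusted p = 0.992), and its sign changed in 5 of 17 alternatives, which rescaled the libraries or left out wildtype-labelled replicate 2 or 3. The ratio of Egln1 to Egln3 was 1.75 ± 0.127 in knockout-labelled and 1.65 ± 0.388 in wildtype-labelled libraries (SD, n = 3 each, exact permutation p = 0.8, two-sided).

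Ankrd37 (chromosome 8, 45996902 to 46005707, minus strand, mm10, ENSMUSG00000050914.16) encodes a small ankyrin-repeat protein that HIF-1 induces directly. Ankrd37 was at 9.60, 18.52 and 11.6 FPKM in knockout-labelled libraries, against 12.1, 15.01 and 21.8 FPKM in wildtype-labelled libraries. The groups overlapped, with the lowest value in knockout-labelled replicate 1 and the highest in wildtype-labelled replicate 3. Ankrd37 had a log2 fold change of −0.31 (SE 0.33, limma, adjusted p = 0.966), which was −0.08 when wildtype-labelled replicate 3 was left out. Only 41 to 120 reads per library lay behind these values, and the gene overlaps Ufsp2 and Lrp2bp on the opposite strand, so reads could be shared with them.

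The genes of the HIF pathway itself also gave no call. Of 20 such genes listed (HIF subunits, hydroxylases other than the members, the VHL ligase and cofactors), 19 were tested, limma called 0 (0% over all tested genes), 9 had higher and 10 lower means, and the median log2 fold change was −0.07. None of the 19 separated the groups in the deposited values. After the trends were taken out Hif3a and Cul2 were lower without overlap (10.5%, beside 8.42% of all tested genes). At a common total Vhl was higher without overlap (5.26%, beside 4.5% of all tested genes). Both shares lay near those of all genes. Hif1a was at 51.8, 32.3 and 35.3 FPKM in knockout-labelled and 44.1, 31.9 and 24.98 FPKM in wildtype-labelled libraries, with replicate 1 the highest in both groups (log2 fold change 0.25, SE 0.32, or 0.05 without wildtype-labelled replicate 3). Epas1 was at 16.5, 14.8 and 18.52 FPKM in knockout-labelled and 15.04, 15.1 and 32.4 FPKM in wildtype-labelled libraries, where wildtype-labelled replicate 3 alone was high (log2 fold change −0.23, SE 0.34, or 0.13 without it). Hif3a, whose product restrains the other alpha subunits, averaged 14.2 ± 2.98 FPKM in knockout-labelled and 18.9 ± 2.97 FPKM in wildtype-labelled libraries (SD, n = 3 each, log2 fold change −0.41, SE 0.27). The listed genes with the smallest p beside Hif3a were Cited4 at −0.75 (SE 0.43), Hif1an, the asparaginyl hydroxylase of HIF, at 0.31 (SE 0.26), and Vhl at 0.32 (SE 0.29), each with an adjusted p of 0.966 (limma). Cited4, which binds the coactivators CBP and p300, was at −0.26 without wildtype-labelled replicate 3, when Hif1an and Vhl were each at 0.12.

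Of the mitochondrial members, Bnip3 was higher in the knockout-labelled libraries and Pdk1 overlapped. Bnip3 (chromosome 7, 138890836 to 138909519, minus strand, mm10, ENSMUSG00000078566.8) encodes a protein of the outer mitochondrial membrane that promotes the removal of mitochondria by autophagy. It was at 84.8, 98.4 and 84.5 FPKM in knockout-labelled replicates 1, 2 and 3, against 76.4, 61.1 and 30.3 FPKM in wildtype-labelled replicates 1, 2 and 3. Every knockout-labelled value lay above every wildtype-labelled one, and wildtype-labelled replicate 3 was far below the rest. The means were 89.2 ± 7.95 FPKM in knockout-labelled and 55.9 ± 23.5 FPKM in wildtype-labelled libraries (SD, n = 3 each). Bnip3 differed by 0.77 on the log2 scale (SE 0.37, limma, adjusted p = 0.966). Without overlap it had to be higher in 3 of 3 pairs.

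The size of the difference in Bnip3 rested largely on 1 library, and the separation of its groups depended on the scaling. Without wildtype-labelled replicate 3 the fold change was 0.38 (SE 0.20, limma, not called). Bnip3 had the lowest GC content of the members, 41.6%, and that library deviated from the gene mean of Bnip3 by −1.16 on the log2 scale as deposited and by −0.55 after GC content and length trends were taken out. After that step the groups did not overlap, and the fold change with the replicate block was then 0.53 (SE 0.20, adjusted p = 0.446, limma). The groups of Bnip3 did overlap when each library was scaled to the same sum of FPKM, and under quantile normalization. Bnip3 was read 324 to 1025 times per library. An antisense gene, Gm45507, and a processed pseudogene, Gm18258, overlap it in the annotation. Bnip3l, a paralog with the same role that is also hypoxia-induced, was at 32.3, 24.97 and 21.6 FPKM in knockout-labelled and 28.7, 23.8 and 10.2 FPKM in wildtype-labelled libraries, and its groups overlapped (log2 fold change 0.43, SE 0.40, or −0.01 without wildtype-labelled replicate 3).

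Pdk1 (chromosome 2, 71873224 to 71903858, plus strand, mm10, ENSMUSG00000006494.11) encodes a pyruvate dehydrogenase kinase, which shuts pyruvate out of mitochondrial oxidation. It was at 91.3, 69.4 and 71.6 FPKM in knockout-labelled libraries, against 94.2, 72.3 and 37.0 FPKM in wildtype-labelled libraries. Replicates 1 and 2 were nearly alike in both groups, and the difference in means came from wildtype-labelled replicate 3. Pdk1 differed by 0.28 on the log2 scale (SE 0.38, limma, adjusted p = 0.966), a difference of −0.10 (SE 0.23) when that library was left out. Of its paralogs, Pdk2 averaged 64.4 ± 5.34 FPKM in knockout-labelled and 121 ± 56.2 FPKM in wildtype-labelled libraries (SD, n = 3 each, log2 fold change −0.80, SE 0.37, or −0.45 without wildtype-labelled replicate 3). The groups of Pdk2 did not overlap, but their nearest values were 68.9 FPKM in knockout-labelled replicate 1 and 70.8 FPKM in wildtype-labelled replicate 1. Of all tested genes 4.74% were lower without overlap. Pdk4, which fasting and fat oxidation induce, was at 16.0, 9.57 and 9.09 FPKM in knockout-labelled and 16.7, 16.4 and 8.36 FPKM in wildtype-labelled libraries, so its groups overlapped.

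The collagen prolyl hydroxylases shared a low replicate 2 but were highest in different libraries. P4ha1 (chromosome 10, 59323296 to 59373304, plus strand, ENSMUSG00000019916.14) and P4ha2 (chromosome 11, 54100095 to 54131665, plus strand, ENSMUSG00000018906.14, both mm10) encode alternative catalytic subunits of the enzyme that hydroxylates collagen so that its triple helix is stable. P4ha1 was at 27.1, 19.8 and 25.3 FPKM in knockout-labelled replicates 1, 2 and 3, against 24.2, 12.6 and 19.7 FPKM in wildtype-labelled replicates 1, 2 and 3. Each knockout-labelled library was above the wildtype-labelled library of the same number, in 3 of 3 pairs, yet the groups as wholes overlapped. P4ha2 was at 18.2, 16.7 and 20.4 FPKM in knockout-labelled libraries, against 17.9, 11.1 and 21.4 FPKM in wildtype-labelled libraries. Replicate 2 was the lowest of its group for both genes in both groups. In both groups P4ha1 was highest in replicate 1 and P4ha2 in replicate 3.

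P4ha1 had a log2 fold change of 0.38 (SE 0.30) and P4ha2 one of 0.17 (SE 0.29), each with an adjusted p from limma of 0.966. Without wildtype-labelled replicate 2 they were 0.12 and −0.09. Among all pairs of members, the centred profiles of P4ha1 and P4ha2 were the second closest, with a root mean square difference of 0.213 on the log2 scale, after Egln3 and Ndrg1 at 0.200. The ratio of P4ha1 to P4ha2 was 1.31 ± 0.165 in knockout-labelled and 1.14 ± 0.215 in wildtype-labelled libraries (SD, n = 3 each, exact permutation p = 0.4, two-sided). P4hb, the shared beta subunit, was at 185, 162 and 203 FPKM in knockout-labelled and 154, 122.5 and 170 FPKM in wildtype-labelled libraries, again lowest in replicate 2 of each group (log2 fold change 0.31, SE 0.30). P4ha3, the third catalytic subunit, was at −0.10 (SE 0.25). Fibroblast markers, the genes of the cells that make most collagen, had higher means for 7 of 10, a median log2 fold change of 0.35 and a summed level of 1271 to 1511 FPKM in knockout-labelled and 902 to 1785 FPKM in wildtype-labelled libraries, with no defining marker at 0; their part in the values of P4ha1 was not tested.

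Ndrg1 was the one member lower in every knockout-labelled library. Ndrg1 (chromosome 15, 66929318 to 66969640, minus strand, mm10, ENSMUSG00000005125.13) encodes a cytoplasmic stress protein that hypoxia, metal depletion and cell differentiation induce. It was at 17.8, 18.2 and 19.2 FPKM in knockout-labelled replicates 1, 2 and 3, against 19.9, 22.4 and 30.1 FPKM in wildtype-labelled replicates 1, 2 and 3. The knockout-labelled values were close together and the groups did not overlap, but the nearest values of the groups were 19.2 and 19.9 FPKM. Ndrg1 averaged 18.4 ± 0.699 FPKM in knockout-labelled and 24.1 ± 5.32 FPKM in wildtype-labelled libraries (SD, n = 3 each), a log2 fold change of −0.36 (SE 0.25, limma, adjusted p = 0.966), or −0.19 without wildtype-labelled replicate 3. Its paralog Ndrg2 was likewise lower in each knockout-labelled library (209, 209 and 224 FPKM in knockout-labelled, 233, 264 and 269 FPKM in wildtype-labelled libraries), Ndrg4 higher (240, 234 and 246 FPKM in knockout-labelled, 217, 220 and 202 FPKM in wildtype-labelled libraries), and Ndrg3 overlapped. Ndrg1 overlaps the antisense gene Gm17035 and the noncoding Gm2895.

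**Figure D2:**
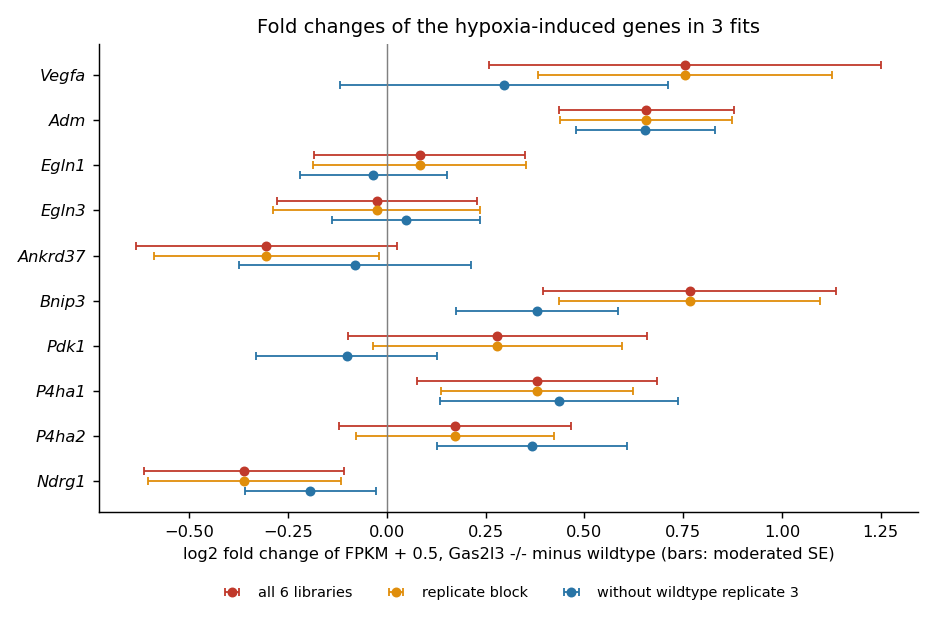
Log2 fold change of each gene (x axis, Gas2l3 -/- minus wildtype, with moderated SE) with all 6 libraries, with replicate number as a block, and without wildtype replicate 3. The block changes the SE only, not the fold change. Adm is at 0.66 with all 6 libraries and at 0.65 without wildtype replicate 3. Bnip3 is at 0.38 and Vegfa at 0.30 without wildtype replicate 3, and Pdk1 and Egln1 then lie just below 0.

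The spread between libraries was uneven among the members. The SD within groups of log2(FPKM + 0.5), over 4 residual degrees of freedom, ran from 0.0970 for Adm to 0.772 for Vegfa. Over the 10 members its median was 0.360, beside 0.405 over all tested genes, and 4 members (Ankrd37, Bnip3, Pdk1 and Vegfa) lay above that all-gene median. Vegfa was at the 92.4th percentile of all tested genes for this SD, while Egln1 was at 7.66, Egln3 at 6.48 and Adm at 1.58. The 10 members thus spread on both sides of the typical gene, with Egln1, Egln3 and Adm among the steadier ones as deposited.

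**Figure D3:**
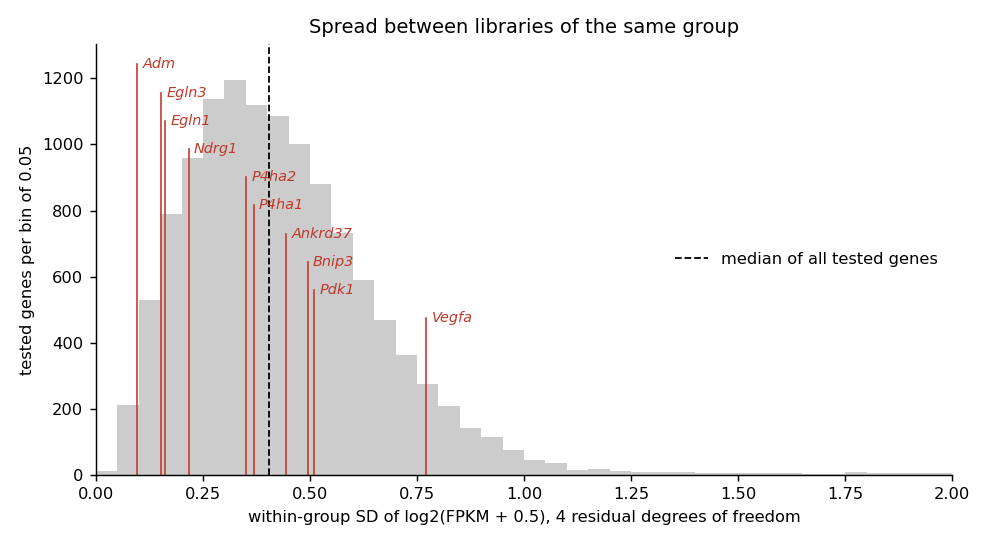
Histogram of the within-group SD of log2(FPKM + 0.5) for the 12121 tested genes (y axis, genes per bin), with the 10 hypoxia-induced genes as red lines whose heights only separate the labels. Vegfa lies in the right tail at 0.772, and Adm, Egln3 and Egln1 in the left.

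The wildtype-labelled libraries carried most of the spread. The SD on the log2 scale was larger among wildtype-labelled than among knockout-labelled libraries for 8 of 10 members (80%), Adm and Ankrd37 being the exceptions, and for 83.8% of all tested genes. The median SD of the members was 0.139 in knockout-labelled and 0.442 in wildtype-labelled libraries, beside 0.215 and 0.492 over all tested genes. Wildtype-labelled replicate 3 held the highest or the lowest of the 6 values for 8 members, and for 71.4% of all tested genes. It was lowest for Vegfa, Bnip3, Egln1 and Pdk1 and highest for Egln3, Ankrd37, Ndrg1 and P4ha2. Over all 12121 tested genes that library was highest for 4549 and lowest for 4111. The cause of its deviations was not tested.

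The direction of these deviations can be set beside the composition of each gene. Bnip3, P4ha1 and Pdk1, the members lowest in GC content (41.6%, 45.7% and 46.4%), lay at −1.16, −0.08 and −0.90 in wildtype-labelled replicate 3. Removing the trends on GC content and length reduced the range over the 6 libraries for Bnip3 to 0.897 from 1.68 as deposited, for Pdk1 to 0.726 from 1.34, and for Ankrd37 to 0.508 from 1.14. It left Vegfa at 2.08 and widened Egln1 to 1.07 from 0.409, whose GC content was the highest of the members (56.0%). After removal wildtype-labelled replicate 3 still had the lowest values of Vegfa, Bnip3, Egln1 and Pdk1 and the highest of Ankrd37 and Ndrg1. It then also had the lowest value of Adm and the highest of P4ha1, which it did not have as deposited.

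**Figure D4:**
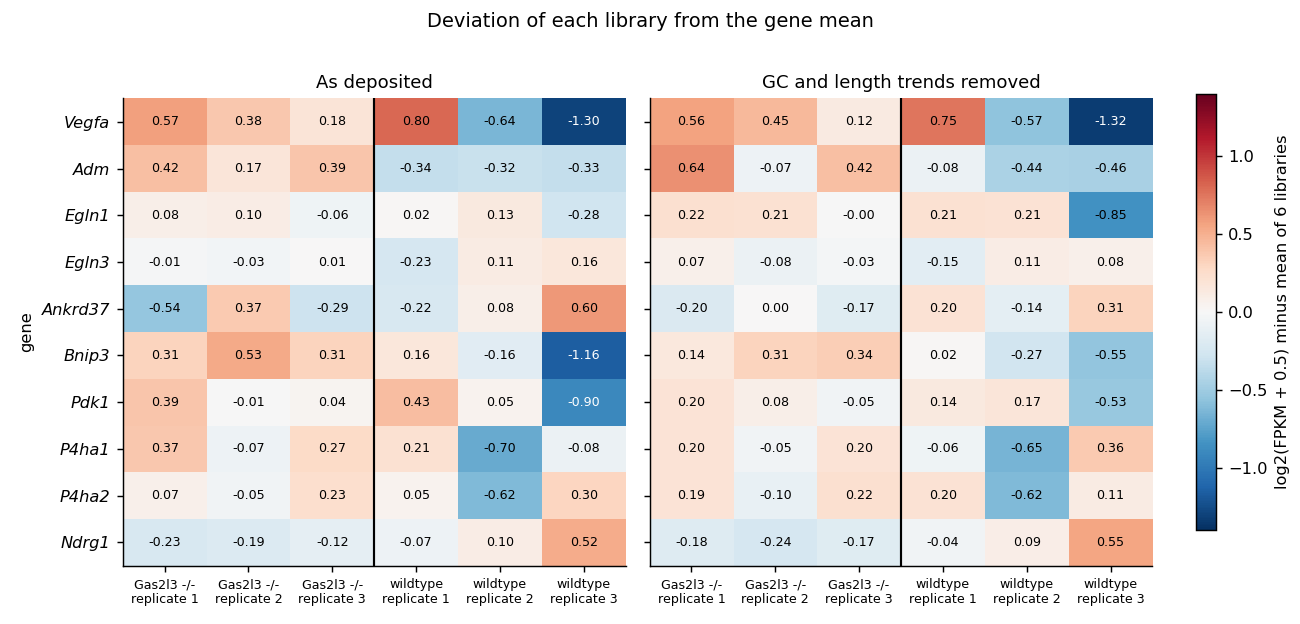
Deviation of each library (columns, Gas2l3 -/- left of wildtype) from the mean of 6 libraries for each gene (rows), in log2(FPKM + 0.5), as deposited and after GC content and length trends were taken out. In wildtype replicate 3 Vegfa, Bnip3 and Pdk1 are low while Ankrd37 and Ndrg1 are high, and in the second panel those of Bnip3, Pdk1 and Ankrd37 are smaller while those of Vegfa and Ndrg1 are not.

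No library had all members high or all low. Taking each member's deviation from its own mean, the median was 0.20, 0.05 and 0.11 in knockout-labelled replicates 1, 2 and 3, against 0.04, −0.05 and −0.18 in wildtype-labelled replicates 1, 2 and 3. Between 4 and 7 of the 10 members were above their own mean in each library. The 61 other HIF targets had medians of 0.12, −0.02 and 0.07 in the knockout-labelled and −0.02, −0.17 and 0.06 in the wildtype-labelled replicates, so wildtype-labelled replicate 3 was, as deposited, the lowest library by the members and not by the larger list. In 5 members (Vegfa, Egln1, Ndrg1, P4ha1 and P4ha2) the 3 replicate numbers stood in the same order in both groups, as they did for 27.2% of all tested genes.

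Immediate early genes and red cell genes differed between libraries too, and their part in the values of the members was not tested. Immediate early genes, which many stimuli induce within minutes, had median deviations of −0.11, 0.00 and −0.17 in the knockout-labelled and −0.34, −0.04 and 0.35 in the wildtype-labelled replicates 1, 2 and 3. Their order was thus not that of the members, being highest in wildtype-labelled replicate 3. With trends removed, their medians lay between −0.11 and 0.09 in all 6 libraries. Atf3, the one of the 17 tested with an unadjusted p under 0.05 (background 1.35% lower), averaged 9.48 ± 1.54 FPKM in knockout-labelled and 15.4 ± 3.17 FPKM in wildtype-labelled libraries (SD, n = 3 each, limma, adjusted p = 0.966). Of the 17, Atf3 alone was lower without overlap (5.88%, beside 4.74% of all tested genes). Fosl2 and Btg2 were higher without overlap (11.8%, beside 5.02% of all tested genes). The 6 tested erythroid markers had their highest median deviation, 0.84, in knockout-labelled replicate 1, and the lowest, −0.40, in knockout-labelled replicate 2. In knockout-labelled replicate 1 Adm and P4ha1 were also highest, while Ankrd37 and Ndrg1 were lowest. Their summed level with the other 4 in the table ran from 69.5 to 173 FPKM in knockout-labelled and from 75.2 to 97.5 FPKM in wildtype-labelled libraries.

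A longer list of genes described as HIF-induced in mammals was read in the same way. The list was chosen with earlier results of these data known, so its shares beside all genes are a description only. Of 65 listed, 61 were tested (Epo was listed at 0 in every library, and Eno1, Car12 and Rora stayed under the minimum), 0 were called by limma beside 0% of all genes, and the median log2 fold change was 0.08, or 0.16 without wildtype-labelled replicate 3. At an unadjusted p under 0.05 there were 3 higher (background 1.9%) and 1 lower (background 1.35%). Higher means were found for 34 and lower means for 27. The groups were separated with higher values in the knockout-labelled libraries for 9 of the 61 (14.8%, beside 5.02% of all tested genes) and with lower values for 2 (3.28%, beside 4.74%). Edn1, Lox and Ak4 were among the 9, and the 2 were Bhlhe40 and Zfp395, which are named because of their values. Without wildtype-labelled replicate 3 the counts were 12 and 4 beside 10.3% and 8.7% of all genes, and with a common total 5 and 1 beside 4.5% and 3.2%. After GC content and length trends were taken out they were 9 and 2 beside 6.58% and 8.42%. Lox and Bhlhe40 were then not separated, and Aldoc was lower without overlap.

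Edn1, the gene of the vasoconstrictor endothelin-1, had the smallest p of that list. Edn1 averaged 12.4 ± 2.73 FPKM in knockout-labelled and 4.89 ± 1.33 FPKM in wildtype-labelled libraries (SD, n = 3 each), a log2 fold change of 1.26 (SE 0.29, limma, adjusted p = 0.966), or 1.08 without wildtype-labelled replicate 3. Lox, which cross-links collagen and elastin, was at 0.70 (SE 0.28), and Ak4, a mitochondrial adenylate kinase, at 0.70 (SE 0.29), or 0.43 without wildtype-labelled replicate 3. The glycolytic aldolase gene Aldoc went the other way, with 5.08 ± 1.003 FPKM in knockout-labelled and 8.79 ± 2.57 FPKM in wildtype-labelled libraries (SD, n = 3 each, log2 fold change −0.71, SE 0.30). None of these 4 passed the adjustment over all genes. Of the 12 endothelial markers 5 had higher and 7 lower means (median log2 fold change −0.04, or 0.39 without wildtype-labelled replicate 3). Of 12 tested macrophage markers 10 had higher means (summed level of all 13 from 132 to 218 FPKM in knockout-labelled and 77.8 to 204 FPKM in wildtype-labelled libraries). The part of these and other cell types in the values of Edn1 and Lox was not tested.

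**Figure D5:**
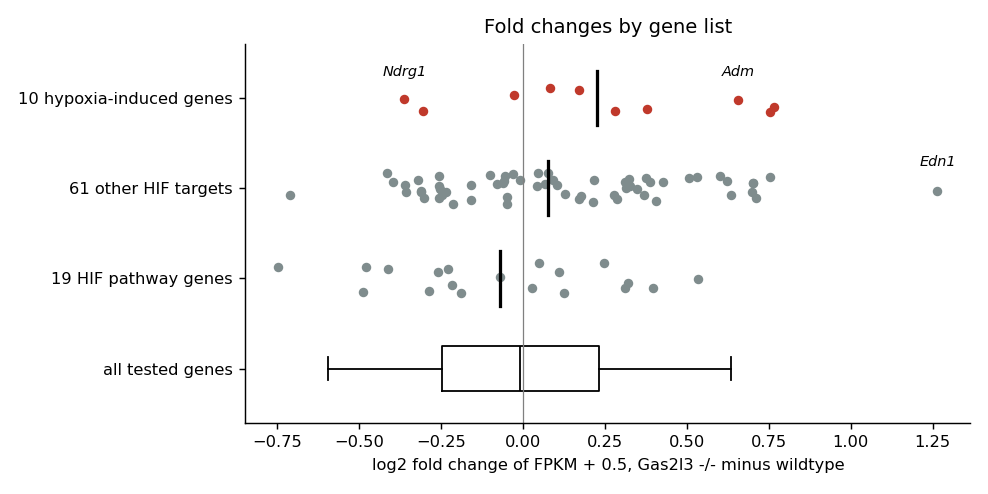
Log2 fold changes (x axis, Gas2l3 -/- minus wildtype) of the 10 hypoxia-induced genes, 61 other HIF targets and 19 HIF pathway genes, 1 point per gene with black bars at the list medians, above a box of all 12121 tested genes (box, quartiles; whiskers, 5th and 95th percentiles). The medians are 0.23, 0.08 and −0.07, and the points of each list lie on both sides of 0.

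In the authors' deposited table the 10 members had the same signs as in the limma fit. Adm had the highest log2 fold change of the members in the authors' deposited table, 0.54 (SE 0.26, unadjusted p = 0.0389), then Bnip3 at 0.49 (SE 0.28) and Vegfa at 0.31 (SE 0.30). Ndrg1 had the lowest in the authors' deposited table, −0.32 (SE 0.24). The authors' deposited table gave all 10 members an adjusted p of 0.998.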

How the data were processed

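RNA of whole hearts was treated with DNase, selected for poly(A) and turned into NEBNext Ultra libraries, per the labels' protocols. Tools and build listed are DESeq2, FastQC and mm10, per the submitters' processing notes; the sources used here do not give the aligner, the counter or the annotation. The authors deposited FPKM for each gene in each library, and a comparison table with mean count, log2 fold change and p-value, per the file headers. That table's direction is read from its signs, which match the FPKM for 95.2% of tested genes. Multiplying out the deposited FPKM gave whole reads for 100% of 94235 values (within 0.01), so they carry size-factor scaling.

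The main test was limma 3.58.1 (R 4.3.3, eBayes with an intensity trend, two-sided) on log2(FPKM + 0.5), with 1 FPKM required in at least 3 libraries and Benjamini-Hochberg adjustment over all tested genes. Fold changes on this scale understate those of low genes. The fit was tested on simulated data. Members and lists were chosen with earlier results of these data known. All members were named; from other lists, up to 4 genes with the smallest p, receptors, subunits and paralogs of members, and genes said to be named for their values. Libraries of the same replicate number deviated together (correlations across genes of 0.472, 0.443 and 0.186), so the numbers were taken as pairs, a pairing that comes from the data. GC content was taken from GENCODE M21 (GRCm38, the build of mm10; longest transcript of each gene) for 96.6% of tested genes; trends were removed by loess (span 0.3). Positions are from that annotation and promoters from RefSeq (GRCm38.p6). Some items are not reported here.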

Additional observations from a re-analysis of the deposited data

How the results depend on the processing

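Adm, Bnip3, Vegfa, P4ha1, Ankrd37 and Ndrg1 kept their direction in each of 17 alternatives, and no member was called in any of them. Not all of the 17 could change a direction. Other filters and the replicate block leave a fold change as it is, and with trends removed it is the same with and without the block. Of the 17, 2 were chosen after seeing the data: trends removed without the block, and wildtype-labelled replicate 3 left out with its pair. Without that pair Egln3 was at 0.038 and Pdk1 at −0.052, the other direction. Egln3 also changed direction with a common total (0.15) and under quantile normalization (0.11). With 1 library left out, Egln3 ran from −0.15 to 0.048, Egln1 from −0.035 to 0.17, P4ha2 from −0.093 to 0.37 and Pdk1 from −0.10 to 0.57. The median of the members was 0.40 with a common total, which moved all genes by 0.15, and with single libraries left out it ran from 0.15 to 0.40, highest in the absence of wildtype-labelled replicate 1. The median of the other HIF targets was 0.24 with a common total and 0.18 without wildtype-labelled replicate 3 and its pair. With trends removed and no block, limma called 1 gene, not a member. With the replicate block, which cannot move a fold change, Adm was again at 0.66 (SE 0.22, adjusted p = 0.782, limma), the smallest p of the members. The block changed no call. Under quantile normalization Adm (higher) and Ndrg1 (lower) separated the groups and Bnip3 did not (background 4.61% higher and 5.59% lower). The cause of these changes was not tested. Adm and Ankrd37 rest on few reads, which limits their precision.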
